A study of Mus musculus with 8 samples.

Results

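The interferon response and class I presentation genes examined here are 49 mouse genes named by a list: regulators and sensors of the interferon pathway, antiviral effectors, ubiquitin-like and other interferon-stimulated genes, GTPases induced by interferon-gamma, and the machinery that loads peptides onto MHC class I. The count table held 48 of the 49 among its 31053 gene identifiers, and each of the 48 had at least 1 count. Mx2 was not analysed here. Bulk RNA-seq had been performed on brown adipose tissue (BAT), the thermogenic fat depot, of C57BL6/J mice given as 8 weeks old, in 4 WT and 4 Cd36KO libraries. CD36 is a scavenger receptor for lipids. The genotype is given only as Cd36KO. The study describes both a germline deletion and a deletion restricted to macrophages (floxed Cd36 with Cre driven by Csf1r), and ascribes its BAT transcriptome to the second, for which its figure legend gives the same age as the labels and its methods a later one. WT libraries carry the replicate numbers 1 to 4. Of the Cd36KO libraries, 3 carry the numbers 2 to 4, and the fourth is called the unnumbered Cd36KO library here because its column bears no number. The sample titles also name a Cd36KO replicate 1, the only title left for that column, but the column name does not give it. The study's legend gives as many mice per group as there are libraries, but the labels tie no library to an animal, and p-values measure the spread between these libraries.

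Interferons act in steps. Type I interferons bind the receptor IFNAR, whose kinases JAK1 and TYK2 phosphorylate STAT2. STAT2 acts with IRF9 in a complex that binds the interferon-stimulated response element (ISRE). Interferon-gamma acts through gamma-activated sites (GAS), and through IRF1 and NLRC5 it induces the class I pathway: a heavy chain (H2-K1, H2-D1) paired with beta-2-microglobulin, peptides cut by the immunoproteasome, and the TAP transporter that carries them into the endoplasmic reticulum. In fat, adipocytes, endothelial cells and macrophages can all respond to interferon, and in brown adipocytes the thermogenic cofactor PRDM16 is known to restrain interferon response genes. In bulk tissue, more cells of a type and more RNA per cell cannot be told apart.

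Letters of the response elements were looked for first, because they are a property that the list of genes did not use. In RefSeq promoter windows (build GRCm38.p6, 250 bases before to 50 after a gene's start), the ISRE core GAAANNGAA was searched on both strands, and GAS as TTCNNNGAA, which is its own reverse complement. The 2 patterns can overlap. Of the 49 genes, 39 had a window. The ISRE core occurred in 20 of the 39 (51.3%), against 9.76% of all 27025 genes with a window, and GAS in 10 (25.6%), against 9.55%. The ISRE core was present in 5 of 5 GTPase genes with a window but in 2 of 10 class I and immunoproteasome genes. A match describes letters and shows neither binding nor a cause. Elements with other letters or spacing were not searched for, so a missing match does not show that an element is missing.

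The 250 bases before the start are shown for the genes on which the results turn: Rsad2 and Igtp, which passed the test; Stat2, a part of the ISRE-binding complex; Gbp7, which holds both patterns; and B2m and H2-K1, the class I light and heavy chains, whose estimates had opposite signs. They are written 5' to 3' on the gene's strand with pattern matches in capitals. The positions are chr12:26456453-26456702 (minus strand) for Rsad2, chr11:58199306-58199555 (plus) for Igtp, chr3:142530086-142530335 (plus) for Gbp7, chr10:128270248-128270497 (plus) for Stat2, chr2:122147437-122147686 (plus) for B2m and chr17:34000348-34000597 (minus) for H2-K1.
Rsad2: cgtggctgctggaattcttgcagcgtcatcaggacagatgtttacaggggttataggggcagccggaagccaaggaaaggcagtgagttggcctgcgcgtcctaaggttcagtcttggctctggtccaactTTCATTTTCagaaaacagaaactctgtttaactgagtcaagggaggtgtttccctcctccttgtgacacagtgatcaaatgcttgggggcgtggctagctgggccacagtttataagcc
Igtp: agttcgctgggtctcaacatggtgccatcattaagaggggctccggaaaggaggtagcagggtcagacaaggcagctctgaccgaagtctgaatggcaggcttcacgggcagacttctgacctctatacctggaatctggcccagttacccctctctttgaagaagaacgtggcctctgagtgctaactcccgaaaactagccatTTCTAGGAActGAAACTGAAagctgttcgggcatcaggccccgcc
Gbp7: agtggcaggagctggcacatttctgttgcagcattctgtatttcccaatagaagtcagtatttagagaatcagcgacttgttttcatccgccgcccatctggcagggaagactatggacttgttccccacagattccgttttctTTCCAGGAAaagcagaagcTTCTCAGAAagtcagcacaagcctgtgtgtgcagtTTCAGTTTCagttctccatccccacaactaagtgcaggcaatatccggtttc
Stat2: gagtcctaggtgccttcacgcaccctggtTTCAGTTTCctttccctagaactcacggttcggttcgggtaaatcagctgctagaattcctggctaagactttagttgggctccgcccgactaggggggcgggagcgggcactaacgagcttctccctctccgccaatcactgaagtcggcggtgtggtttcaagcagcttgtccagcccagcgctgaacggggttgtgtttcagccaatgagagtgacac
B2m: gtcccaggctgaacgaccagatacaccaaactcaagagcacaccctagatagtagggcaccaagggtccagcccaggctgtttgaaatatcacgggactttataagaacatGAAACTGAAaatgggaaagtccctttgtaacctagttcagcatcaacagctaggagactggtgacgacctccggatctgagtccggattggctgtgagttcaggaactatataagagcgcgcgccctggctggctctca
H2-K1: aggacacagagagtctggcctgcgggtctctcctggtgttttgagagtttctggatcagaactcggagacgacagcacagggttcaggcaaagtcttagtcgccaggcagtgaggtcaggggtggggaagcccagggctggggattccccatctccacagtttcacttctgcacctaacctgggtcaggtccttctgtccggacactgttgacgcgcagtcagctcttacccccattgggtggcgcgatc

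In Igtp, a GAS match at -45 stood close to an ISRE core match at -34, counted from the RefSeq start on which each window is built. That start can differ from the gene coordinates given below. For Stat2 the stretch ended at 128270497, whereas the coordinates start at 128270559. In Gbp7, GAS matches lay at -106 and -87 and an ISRE core match at -52. Single ISRE core matches lay at -119 in Rsad2, -221 in Stat2 and -139 in B2m, and the H2-K1 window showed neither pattern. Median differences were alike with and without a match. Among genes with a mean of at least 10 normalized counts, the median log2 fold change was 0.45 in the 18 with the ISRE core, Rsad2 and Igtp among them, and 0.44 in the 17 without it. For GAS the medians were 0.46 in 8 genes and 0.43 in 27.

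The comparison asked how the tissue transcriptome differed between Cd36KO and WT mice. In Cd36KO libraries 2 of the 41 interferon and class I genes with an adjusted p rose, the antiviral enzyme gene Rsad2 and the GTPase gene Igtp, and none fell (DESeq2, adjusted p under 0.05). Over all genes the same test called 2.95% of 9619, and 1.42% as higher. The edgeR quasi-likelihood test called none of the listed genes, where it called 0.143% of all genes, and limma called none, where it called 0.0461%. At an unadjusted p under 0.05 the 3 tools gave 14, 12 and 15 of the listed genes, in that order, all higher with all 8 libraries. DESeq2 and limma covered all 48, whereas the edgeR filter left out Oas1a, Oas2, Mx1, Ifit2, Ifitm1 and Irgm1. The share of all genes at that cut was counted for DESeq2 only and is given below. In DESeq2, 7 of the 48 had counts too low or uneven for an adjusted p: Oas1a, Oas2, Mx1, Ifit2, Ifitm1, Irgm1 and Tap2.

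Beyond the calls, the estimates leaned towards higher values in Cd36KO. Of 42 genes with a mean of at least 10 normalized counts (counts divided by the library's size factor), 32 had a positive and 10 a negative log2 fold change, or 76.2% positive against 49.02% of all genes at that level. Their median log2 fold change was 0.46, against -0.01 over all genes. Of the 42, 14 (33.3%) had an unadjusted p under 0.05 with a higher value, against 7.55% of all genes, and 0 a lower value, against 7.78%. That count rested in part on single libraries. With 1 library left out, 8 to 15 of the 48 had an unadjusted p under 0.05, against 14 of the 48 with all 8. The number was 8 without the unnumbered Cd36KO library (7 higher), 9 without WT replicate 2 and 9 without WT replicate 4 (all higher), and 15 without WT replicate 1 (13 higher). The share of all genes at that cut was not counted in these fits, in which adjusted calls over all genes ran from 69 to 507. These numbers therefore stand without a background. All 4 Cd36KO values exceeded all 4 WT values for Rsad2, Irf9, Stat2, Irf3, Psmb10 and Iigp1, 6 of 42, where this held for 4.74% of all genes. For none did all Cd36KO values lie below all WT values, against 3.91% of all genes. The members were not chosen independently of earlier results of these data, and their levels depend on each other, so these shares are descriptions.

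By role, the median log2 fold change was 0.51 for the 9 regulators and sensors, 0.35 for 8 antiviral effectors, 0.59 for 9 ubiquitin-like and other interferon-stimulated genes, 0.64 for 5 GTPases and 0.11 for 11 class I and immunoproteasome genes. Positive estimates numbered 7, 6, 7, 5 and 7 in the same order. The plot of fold changes shows that the intervals of most genes crossed or nearly touched zero.

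**Figure D1:**
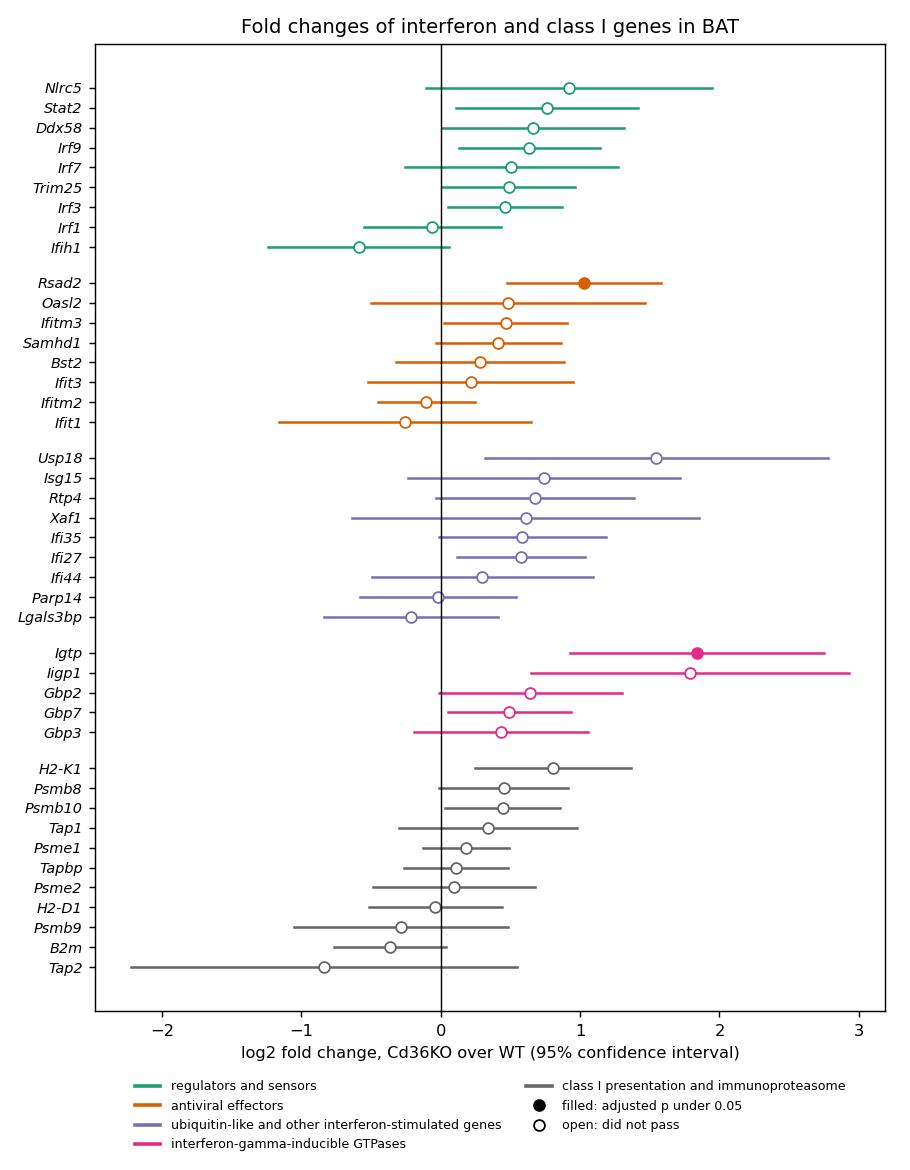
Log2 fold change (Cd36KO over WT, x axis) of the 42 genes with a mean of at least 10 normalized counts, grouped by role; points are DESeq2 estimates, lines their 95% confidence intervals, and filled points have an adjusted p under 0.05. Only Rsad2 and Igtp are filled, and all 5 GTPases lie right of zero.

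Among the regulators, Irf9 and Stat2, which encode subunits of the ISRE-binding complex, had higher values in every Cd36KO library than in any WT library, but did not pass the adjusted threshold. Irf9 (chromosome 14, 55603571 to 55610030), the DNA-binding subunit, had 112, 86.6, 119 and 54.4 normalized counts in WT replicates 1 to 4, and 154 in the unnumbered Cd36KO library and 170.3, 132 and 122 in Cd36KO replicates 2 to 4. WT replicate 4 was the lowest by a wide margin. The estimated log2 fold change was 0.64 (standard error, SE, 0.26, DESeq2 adjusted p = 0.170). The exact two-sided permutation p was 0.0286, the smallest that 4 against 4 libraries allow, which any groups without overlap give.

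Stat2 (chromosome 10, 128270559 to 128292849) was sparser, with 21.7, 33.1, 27.1 and 14.8 normalized counts in WT and 40.1, 47.2, 38.9 and 38.9 in Cd36KO, given throughout as the unnumbered library followed by replicates 2 to 4. The 4 Cd36KO values lay close together and above WT. The log2 fold change was 0.77, SE 0.33 (DESeq2 adjusted p = 0.214). Irf3 (chromosome 7, 44997648 to 45002848), the factor that viral sensors activate, had 75.8, 67.1, 88.2 and 80.1 in WT and 120.3, 105, 94.1 and 108 in Cd36KO. Its groups did not overlap either, at a log2 fold change of 0.46, SE 0.21 (DESeq2 adjusted p = 0.237). Irf3 and Irf9 share a stretch of exon with Bcl2l12 and Rnf31, so part of their counts could not be assigned with certainty.

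For the other 2 interferon regulatory factors in the list, the groups overlapped. Irf7, which amplifies type I interferon production, ranged widely within WT, at 12.6, 24.6, 37.6 and 48.5 normalized counts, and had 40.1, 34.5, 54.2 and 45.0 in Cd36KO (log2 fold change 0.51, SE 0.39). Irf1, a principal mediator of interferon-gamma, had 144, 138, 155 and 181 in WT and 193, 189.9, 103 and 108 in Cd36KO. Its Cd36KO libraries split, the unnumbered library and replicate 2 lying above every WT value and replicates 3 and 4 below, and the mean difference was near zero (log2 fold change -0.06, SE 0.25, DESeq2 adjusted p = 0.946).

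The estimates for the sensors and their partners had both signs. Ddx58, which encodes the RNA sensor RIG-I, had a log2 fold change of 0.66, its ubiquitin ligase Trim25 had 0.49, and both had an unadjusted DESeq2 p under 0.05 (0.0471 and 0.0442). Ifih1, which encodes the related sensor MDA5, had -0.59 (unadjusted p = 0.0758). Nlrc5, the transactivator of class I genes, had an estimate of 0.92 from only 110 counts over all libraries, with an SE of 0.52.

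Rsad2 gave the clearest difference among the antiviral effectors. It encodes viperin, an interferon-induced enzyme of the endoplasmic reticulum and lipid droplets that makes a chain-terminating nucleotide. Rsad2 (ENSMUSG00000020641, chromosome 12, 26442746 to 26456452, minus strand) had 218, 116, 133 and 70.2 normalized counts in WT and 283, 242, 306 and 263 in Cd36KO. Every Cd36KO library was above every WT library, and WT replicate 1 came nearest to them. Means were 134 ± 61.6 and 273 ± 27.4 (SD, n = 4 each), and the log2 difference was 1.03, SE 0.28 (DESeq2 adjusted p = 0.0203, edgeR adjusted p = 0.126). The call did not hold without WT replicate 2 (DESeq2 adjusted p = 0.129), WT replicate 3 (0.0722), the unnumbered Cd36KO library (0.0830), Cd36KO replicate 3 (0.0843) or Cd36KO replicate 4 (0.0712), while the log2 fold change stayed between 0.81 and 1.37 over all 8 such fits.

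The most abundant effectors were Ifitm3 and Ifitm2, which encode interferon-induced transmembrane proteins that block viral entry at endosomes. Ifitm3 had 358, 375, 435 and 228 normalized counts in WT and 487, 351, 519 and 569 in Cd36KO, with 3 Cd36KO libraries above all WT libraries and replicate 2 within them (log2 fold change 0.47, SE 0.22, DESeq2 adjusted p = 0.282). Ifitm2 had 199, 266, 274 and 209.7 in WT and 217, 208, 209.7 and 246 in Cd36KO. All of its Cd36KO values fell within the WT range, at a log2 fold change of -0.10, SE 0.18, and a 95% confidence interval from -0.45 to 0.25.

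Other effectors gave no uniform direction. The tetratricopeptide proteins that bind viral RNA had estimates of -0.25 (Ifit1) and 0.21 (Ifit3), the 2'-5'-oligoadenylate synthetase relative Oasl2 had 0.48, the tethering factor Bst2 0.28 and the nucleotide hydrolase Samhd1 0.41, and the groups overlapped for each. Other effectors were sparse. Over all 8 libraries together, Mx1 had 7 counts, Oas1a had 3, Ifitm1 had 22, Ifit2 had 40 and Oas2 had 43. Oas2, with 0 to 8 counts per library, was at 0 to 5.88 normalized counts in WT and 6.10 to 8.05 in Cd36KO, without overlap. Its log2 fold change was 1.07, SE 0.78 (DESeq2 unadjusted p = 0.171). The exact two-sided permutation p of 0.0286 follows from the lack of overlap alone and adds nothing at such counts.

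**Figure D2:**
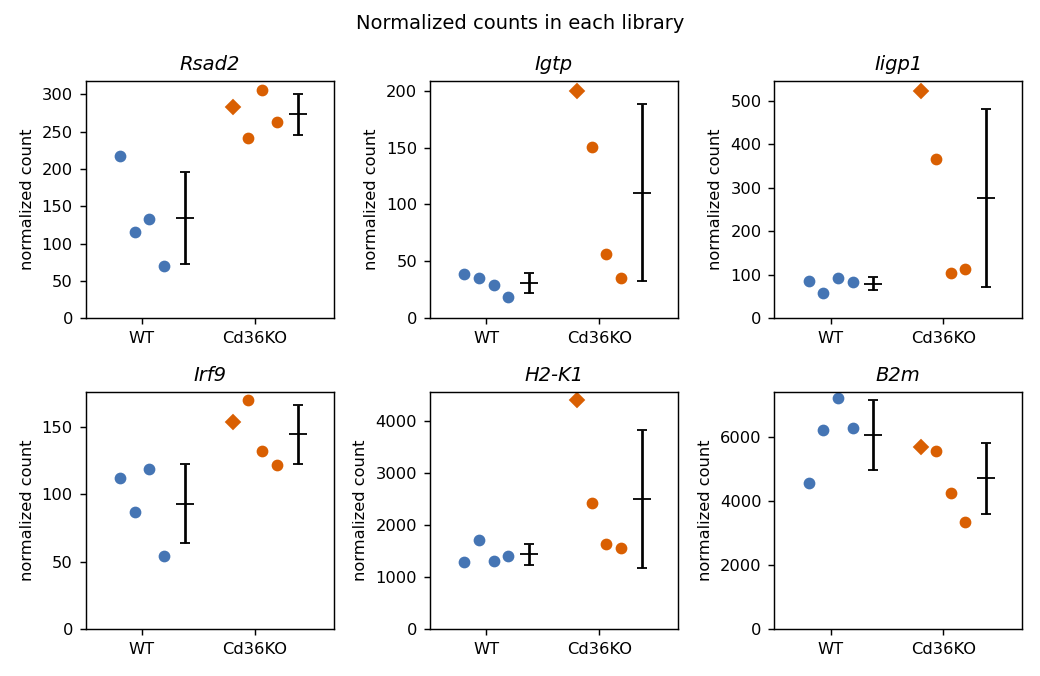
Normalized counts (y axis, from 0) of 6 genes in each WT (blue) and Cd36KO (orange) library, in replicate order; the diamond is the unnumbered Cd36KO library, and the bar beside each group is its mean with SD (n = 4). The Cd36KO points of Rsad2 and Irf9 lie together above WT, whereas those of Igtp, Iigp1 and H2-K1 are spread out, with the unnumbered library and replicate 2 on top.

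Ifi27, a mitochondrial and nuclear-envelope protein gene and the most abundant of the ubiquitin-like and other interferon-stimulated genes by counts, had 1915, 2604, 2309 and 4035 normalized counts in WT and 5128, 3881, 4061 and 3114 in Cd36KO. WT replicate 4 fell within the Cd36KO range, and the other WT libraries lay below it. The log2 fold change was 0.58, SE 0.23 (DESeq2 adjusted p = 0.172), and without WT replicate 4 it was 0.83 with an adjusted p of 0.00156. Lgals3bp, a secreted glycoprotein gene, had 99.3, 277, 356 and 258 in WT and 289.7, 167, 186 and 211 in Cd36KO. WT replicate 1 was lowest and the groups overlapped (log2 fold change -0.21, SE 0.32).

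Of the other 7 genes in that group, only Usp18, the protease that removes ISG15 from its targets and restrains IFNAR, had an unadjusted p under 0.05 (0.0136). Its log2 fold change of 1.55, SE 0.63, came from 89 counts in all (DESeq2 adjusted p = 0.170). Isg15 itself had 0.74, Rtp4 0.68, Xaf1 0.61, Ifi35 0.59, Ifi44 0.30 and Parp14 -0.02, and the groups overlapped in each.

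The interferon-gamma-inducible GTPases guard vacuoles that hold intracellular pathogens. Igtp and Iigp1 had the largest estimates among the 42 genes, and the guanylate-binding protein genes had smaller ones. Igtp (ENSMUSG00000078853, chromosome 11, 58199556 to 58207591, plus strand), also known as Irgm3, had 38.8, 35.7, 29.4 and 18.8 normalized counts in WT and 199, 151, 56.3 and 35.1 in Cd36KO. The unnumbered library and replicate 2 were far above WT, replicate 3 somewhat above, and replicate 4 within the WT range. The log2 fold change was 1.84, SE 0.46 (DESeq2 adjusted p = 0.00903, edgeR adjusted p = 0.121), but the exact two-sided permutation p of 0.0857 did not pass 0.05. Without the unnumbered library the estimate was 1.38 with a DESeq2 adjusted p of 0.132, and without WT replicate 1 the adjusted p was 0.0937. Igtp shares an exon stretch on its own strand with Irgm2.

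Iigp1, which encodes the related GTPase Irga6, had 86.7, 56.9, 91.7 and 84.1 normalized counts in WT and 523, 366, 103 and 113 in Cd36KO. The groups did not overlap, yet replicates 3 and 4 of Cd36KO stood only just above WT. The log2 fold change was 1.79, SE 0.58 (DESeq2 adjusted p = 0.0620), and it passed the threshold without Cd36KO replicate 3 (adjusted p = 0.000153) or replicate 4 (0.000721). Gbp7, a guanylate-binding protein gene, had 113, 128, 169 and 119 in WT and 182, 244, 176 and 143 in Cd36KO. Replicate 4 of Cd36KO lay within the WT range (log2 fold change 0.49, SE 0.22, DESeq2 adjusted p = 0.242). Its relatives Gbp2 and Gbp3 had estimates of 0.64 and 0.43, and the sparse Irgm1, with 73 counts in all, had 0.92 without overlap. Guanylate-binding protein genes have near-identical neighbours, so their counts are less certain.

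With all 8 libraries none of the class I and immunoproteasome genes passed the test, and their estimates had both signs. H2-K1 (ENSMUSG00000061232, chromosome 17, 33996017 to 34000347, minus strand), a classical heavy chain gene, had 1289, 1711, 1314 and 1407 normalized counts in WT and 4396, 2419.9, 1638 and 1551 in Cd36KO. The unnumbered library was highest by far, replicate 2 next, and replicates 3 and 4 lay within the WT range. The log2 fold change was 0.81, SE 0.29 (DESeq2 adjusted p = 0.0994). It was 0.39 without the unnumbered library (adjusted p = 0.530) and passed the threshold without Cd36KO replicate 4 (adjusted p = 0.0478).

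B2m (chromosome 2, 122147686 to 122153083), the light chain, had 4583, 6215, 7231 and 6295 normalized counts in WT and 5696, 5554, 4267 and 3353 in Cd36KO. The groups overlapped, and the estimate was negative (log2 fold change -0.37, SE 0.20, DESeq2 adjusted p = 0.386). The other heavy chain gene, H2-D1, ranged from 1002 to 1577 in WT and from 805 to 1704 in Cd36KO (log2 fold change -0.04, SE 0.24).

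Set against B2m in the same library, H2-K1 separated the groups. H2-K1 counts equalled 28.1%, 27.5%, 18.2% and 22.3% of B2m counts in WT and 77.2%, 43.6%, 38.4% and 46.3% in Cd36KO. For H2-D1 the shares were 22.2%, 25.4%, 13.9% and 24.0% in WT and 29.9%, 25.1%, 25.2% and 24.0% in Cd36KO, which overlapped. These ratios were chosen after the values had been seen and are given without a test. They are not corrected for gene length and compare libraries, not genes, and class I heavy chain genes are similar enough in sequence that reads may be assigned to the wrong one.

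**Figure D3:**
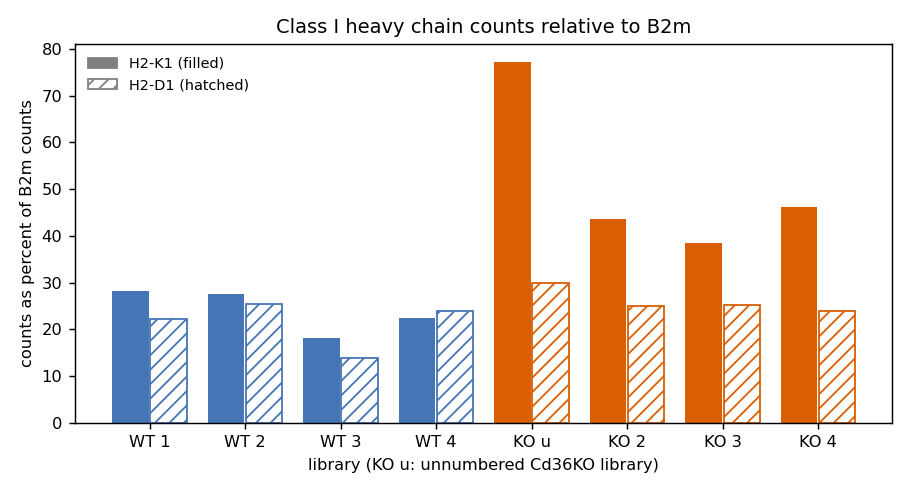
H2-K1 (filled) and H2-D1 (hatched) counts as a percentage of B2m counts (y axis, from 0) in each WT (blue) and Cd36KO (orange) library. H2-K1 stands between 38.4% and 77.2% in Cd36KO and at most at 28.1% in WT, while the H2-D1 bars overlap.

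Of the immunoproteasome subunits, Psmb10 had 116, 164, 147 and 131 normalized counts in WT and 252, 168, 173 and 168 in Cd36KO. The groups did not overlap, but only the unnumbered library stood clear of WT (log2 fold change 0.44, SE 0.21, DESeq2 adjusted p = 0.271). The catalytic subunits Psmb8 and Psmb9 had estimates of 0.45 and -0.29, and the activator subunits Psme1 and Psme2 had 0.18 and 0.10. The transporter genes Tap1 and Tap2 had 0.34 and -0.84, and the tapasin gene Tapbp 0.11. Psmb9 and Tap1 overlap on opposite strands, and the strand setting of the counting is not stated.

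The Cd36KO libraries differed among themselves in the level of these genes. The unnumbered library and Cd36KO replicate 2 were the 2 highest of all 8 libraries for 13 of the 42 genes (31.0%), a pair that topped 4.04% of all genes. The 13 were Irf1, Irf9, Stat2, Nlrc5, Samhd1, Gbp2, Gbp7, Igtp, Iigp1, H2-K1, Tap1, Psmb8 and Psme1. The unnumbered library was highest for 16 of 42 (38.1%, against 18.3% of all genes) and replicate 2 for 11 (26.2%, against 7.93%), and replicate 2 was lowest for 0. Rsad2 did not follow that pair, its highest values being in the unnumbered library and replicate 3.

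At the other end, WT replicate 4 was lowest for 15 of 42 (35.7%, against 15.7% of all genes), among them Irf9, Stat2, Rsad2 and Igtp. WT replicate 2 was lowest for 6 (14.3%, against 7.05%), and Cd36KO replicate 3 was highest for 5 (11.9%, against 8.62%). These shares were counted after the values had been seen. The map of centred levels and the bars of extreme libraries show both patterns.

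**Figure D4:**
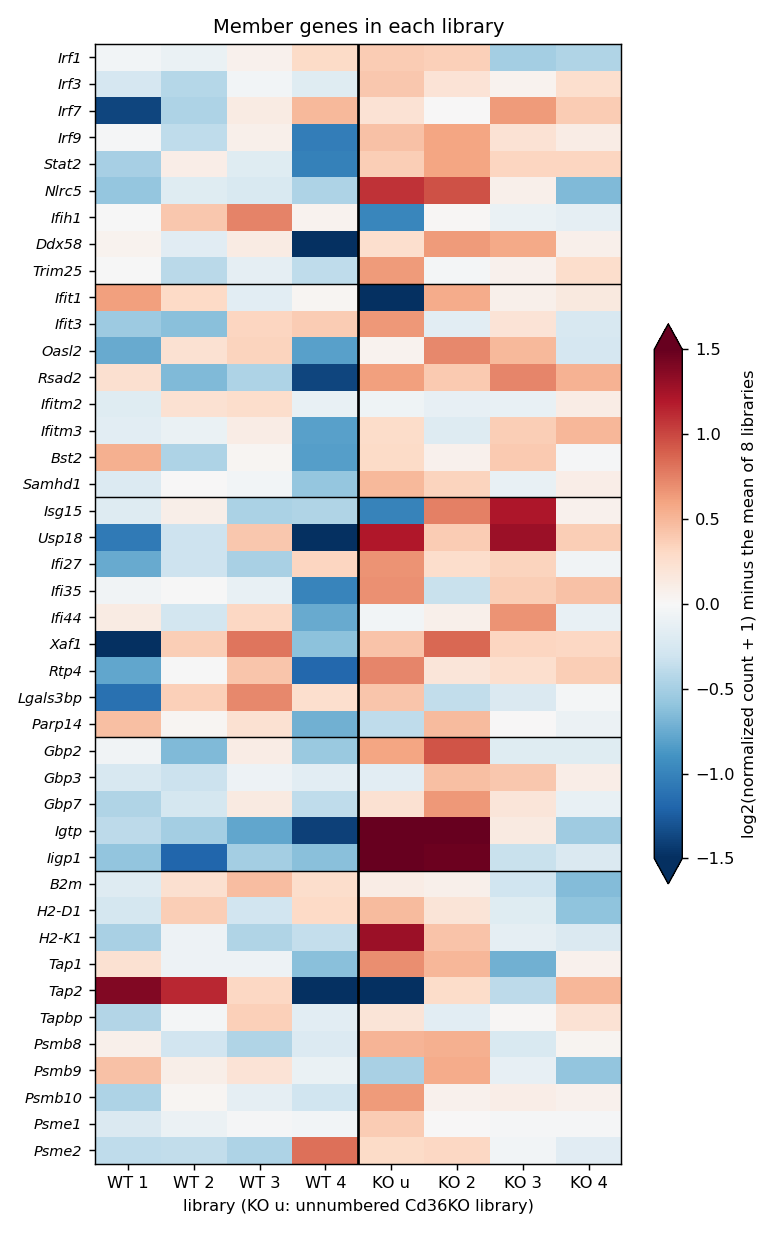
Log2(normalized count + 1) of each of the 42 genes in each library minus the gene's mean over the 8 libraries (colour, red above and blue below, saturated at the ends of the scale), with WT left and Cd36KO right of the thick line and roles separated by thin lines. Igtp and Iigp1 are deep red in the unnumbered Cd36KO library and replicate 2 only, and blue prevails in WT replicate 4.

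**Figure D5:**
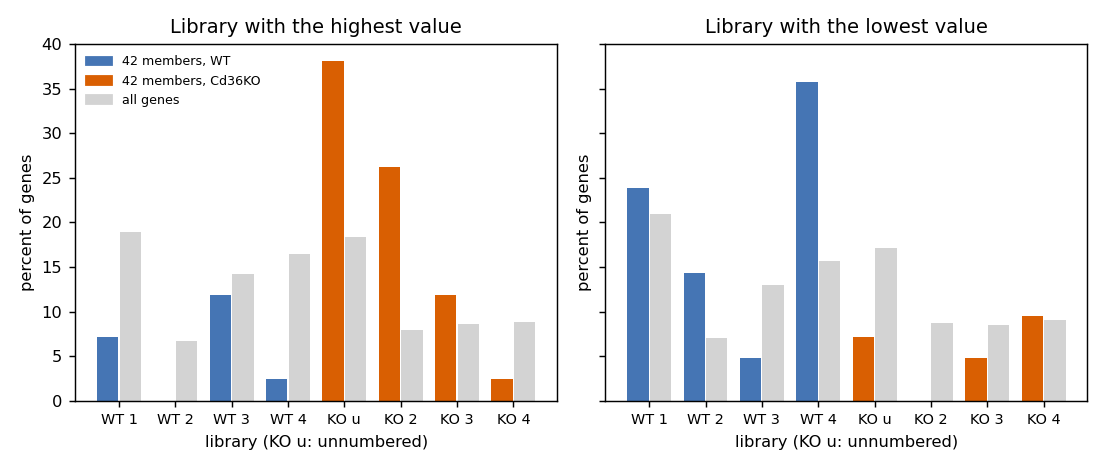
Percent of the 42 genes (coloured bars) and of all genes at the same level (grey bars) for which each library held the highest (left) or lowest (right) value. The unnumbered Cd36KO library and replicates 2 and 3 exceed the grey bars on the left, and WT replicates 1, 2 and 4 and Cd36KO replicate 4 do on the right, WT replicate 4 by the most.

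A further list of 103 interferon and antigen presentation genes, written as a list of the rest of the pathway with earlier results of these data known, gave a median log2 fold change of 0.10, with 35 of 67 genes at a mean of at least 10 positive. Of 65 with an adjusted p, 1 rose and 1 fell, a share near the 2.95% called over all genes. They were neighbouring non-classical class I genes: H2-T23 rose (log2 fold change 2.75, SE 0.75, DESeq2 adjusted p = 0.0192) and H2-T22 fell (-1.94, SE 0.53, adjusted p = 0.0178). H2-T23 had 10.8, 0.849, 1.18 and 0 normalized counts in WT and 32.3, 18.4, 18.4 and 19.8 in Cd36KO, and H2-T22 had 28.9, 56.9, 47.0 and 46.5 in WT and 0, 18.4, 18.4 and 9.91 in Cd36KO. Neither group pair overlapped. Neither gene was called by edgeR (adjusted p = 0.121 and 0.126 for H2-T23 and H2-T22). Leaving out 1 library kept the H2-T23 call in 1 of 8 fits, without WT replicate 1, where the estimate was 5.07. That call was lost without WT replicate 2 or 3, the unnumbered library or Cd36KO replicate 4 (adjusted p 0.0767 to 0.160). The H2-T22 call was kept in 2 fits and lost without WT replicate 2 or 3 or Cd36KO replicate 4 (0.0855 to 0.158). The other 3 fits gave neither gene an adjusted p. The genes are alike in sequence and the moves were opposite, so a shift of reads from one to the other cannot be told apart from a change in each.

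Upstream of the list, none of the 7 interferon genes of the further list (Ifnb1, Ifna2, Ifna4, Ifnk, Ifnl2, Ifnl3 and Ifng) had a count in any library, which allows up to 3 counts per library by counting error alone. Other interferon genes were not looked up. All 5 receptor chains at a mean of at least 10 had negative estimates, from -0.81 to -0.08, and none passed the test. Irf2, which competes with IRF1 for its sites, had 224, 261, 198 and 185 normalized counts in WT and 124, 148, 151 and 162 in Cd36KO, all lower (log2 fold change -0.57, SE 0.19, DESeq2 adjusted p = 0.0686), and passed the threshold without WT replicate 4 (adjusted p = 0.0250).

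Among class II genes, which present extracellular peptides, 5 of 6 estimates were positive and none passed the test. H2-Ab1 had 246, 280.3, 233 and 273 normalized counts in WT and 349.8, 321, 302 and 405 in Cd36KO, without overlap (log2 fold change 0.42, SE 0.16, DESeq2 adjusted p = 0.153).

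Total counts per library ran from 2679785 to 4097953, and the listed genes took 0.427% to 0.668% of them, both ends of that range being Cd36KO libraries: the highest share was in the unnumbered library and the lowest in replicate 4, with WT libraries between 0.454% and 0.546%. Cd36 itself had 2412 to 3505 normalized counts in WT and 1926 to 2384 in Cd36KO, so the transcript remained abundant, and which exons the reads cover is not stated. Every pair of libraries differed by more than counting noise, and WT replicate 1 stood apart from the rest, its counts giving chi-square values per degree of freedom between 34.5 and 65.4 against the other libraries, whose own pairs had 6.43 to 26.6. It also had the highest skeletal muscle sum, 36136 normalized counts against 445 to 7003 in the other WT libraries. Without it, 1 of the listed genes passed the DESeq2 test (Rsad2), 31 of 42 estimates were positive, and the median log2 fold change was 0.42. Xist was present in every library, with 772 to 1588 counts, although the study's methods describe male mice.

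Brown adipocyte genes were abundant, with a summed level of 35097 to 51128 in WT and 46241 to 47994 in Cd36KO over 9 of 9 markers, although the cell type field names the stromal vascular fraction. The estimates of these markers had both signs. Ucp1, Cidea and Cox8b, thermogenic and mitochondrial genes, rose without overlap (log2 fold change 0.82, 0.97 and 0.50, DESeq2 adjusted p = 0.00843, 5.92e-06 and 0.0337). Ppargc1a, Dio2 and Elovl3 had positive estimates (0.51, 0.91 and 1.22) with overlap. Fabp4, a lipid carrier gene, was lower without overlap (-0.73, adjusted p = 0.0762), and Adipoq and Plin1 had negative estimates (-0.27 and -0.45). The 5 white adipocyte markers summed to 571 to 3604 in WT, with replicate 1 lowest, and to 304 to 465 in Cd36KO, without overlap and mostly from Nnat. Lep, Hoxc8, Aldh1a1 and Nnat each fell (log2 fold change -2.46, -3.08, -1.81 and -2.59, DESeq2 adjusted p = 9.59e-06, 5.58e-08, 8.09e-05 and 0.00228). Hoxc9, with 21 counts in all, had -3.26. The part of these adipocyte markers in the listed genes' values was not tested.

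Of the immune lists, only the dendritic one had sums that did not overlap between groups, and nearly all of those sums came from a single gene, Zbtb46. Macrophage markers summed to 571 to 936 in WT and 622 to 940 in Cd36KO (9 of 9 with counts). Within that list Cd163, a scavenger receptor gene, fell, from 46.9 to 115 in WT to 25.2 to 42.6 in Cd36KO (log2 fold change -1.25, DESeq2 adjusted p = 0.0183), and Mrc1 had an estimate of -0.85. The rest of the list had both signs, and none of it passed the test. Estimates were 0.19 for C1qa and Lyz2, 0.10 for C1qb, -0.003 for Cd68, -0.03 for Csf1r, -0.32 for C1qc and -0.66 for Adgre1, which had 46 counts in all. The pan-leukocyte marker Ptprc had 20.8 to 51.0 and 29.7 to 46.0. Lymphocyte markers summed to 10.9 to 15.3 and 14.3 to 34.5 (8 of 9 with counts, Cd79a at 0), and the highest sum was in the unnumbered library. The dendritic list summed to 71.3 to 78.8 in WT and 87.7 to 125 in Cd36KO, and Zbtb46 alone had 64.1 to 78.8 and 80.8 to 119 (log2 fold change 0.58, DESeq2 adjusted p = 0.139). The plasmacytoid marker Siglech had at most 2.71. Beside Zbtb46 the markers were sparse, with estimates of -2.60 (Siglech, 5 counts in all), -0.64 (Flt3, 3), -0.27 (Xcr1, 9) and 2.43 (Itgax, 35). Endothelial markers (762 to 1201 and 857 to 1226, 7 of 7), stromal progenitor markers (710.4 to 894 and 631 to 762, 4 of 4) and skeletal muscle markers (445 to 36136 and 26.6 to 4275, 8 of 8) overlapped. Whether any of these cell types contributed to the differences was not tested.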

How the data were processed

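RNA of BAT from 4 WT and 4 Cd36KO samples had been sequenced as single-end 75-cycle libraries from a digital mRNA-seq service. According to the study's methods, bbduk was used for trimming, STAR for alignment to the mouse genome and HTSeq-count for counting by gene. The submitters' processing notes and the study's list of software name Trimmomatic and HISAT2, and which tools made this table could not be settled. The notes also name DESeq2 and the builds mm10 and GRCm38. The strand setting, annotation release and any molecular identifiers are not given in the sources used here. The deposited values are whole-number counts per gene. A second deposited table by the authors holds log2 values, checked to equal log2 of the count over a size factor plus a pseudocount of 1.

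Symbols and 1-based coordinates came from GENCODE M21 (GRCm38), and 30934 of 31053 identifiers matched. The 48 listed genes in the table were read from a fit of all genes with DESeq2 1.42.0 in R 4.3.3 (Wald test with genotype as sole term, size factors by median of ratios, its default filters, no shrinkage of fold changes, Benjamini-Hochberg threshold 0.05), which the study's methods name. Alternatives were edgeR 4.0.16 (quasi-likelihood test), limma 3.58.1 on the authors' log2 values, and DESeq2 with TMM factors, without independent filtering, on genes with 10 counts in 4 libraries, blocked by replicate number, or lacking each library in turn. Functions were first tested on simulated counts. Exact two-sided permutation tests (SciPy 1.17.1) covered the 70 arrangements of 4 against 4. Intervals are 95%, and the floor of 3 counts covers counting error only, since reads are not independent molecules. Totals were 2679785 to 4097953 counts per library.

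The gene list, role groups, further list and marker lists were chosen with earlier results of these data known. Values in every library are given for members with an adjusted p under 0.05 or groups that did not overlap at a mean of at least 10, the 2 most abundant of each role, and the Irf genes, and, for the further list, those with an adjusted p under 0.05 or no overlap at a mean of at least 50, and the interferon genes. An item of that rule is not reported here. Other members are given by estimates. Promoter windows are from RefSeq.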

Additional observations from a re-analysis of the deposited data

Results flagged for a closer look

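In 6 of 84 groups of 4 libraries, 1 library stood apart from the other 3 by Dixon's criterion on log2(normalized count + 1), where chance gives about 4.2. In Cd36KO, Stat2 was 5.59 in replicate 2 against 5.32 to 5.36 in the others. The unnumbered Cd36KO library was low for Ifih1 (4.23 against 5.08 to 5.24), and high for the proteasome genes Psmb10 (7.98 against 7.40 to 7.44) and Psme1 (8.91 against 8.52 to 8.54). In WT, replicate 4 was low for Ifi35 (4.94 against 5.81 to 5.92) and high for Psme2 (8.17 against 6.88 to 6.97).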

How the results depend on the processing

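Of 2 listed genes called by DESeq2, both higher, edgeR and limma called 0. TMM factors, the filter on low counts and independent filtering off called the same 2. At an unadjusted p under 0.05 edgeR and limma gave 12 and 15, against 14, and their shares over all genes at that cut were not counted. Leaving out 1 library gave 0 to 3, both as calls and as calls higher, and calls over all genes from 69 to 507, with 69 without WT replicate 2, 141 without WT replicate 3, 507 without WT replicate 4, 113 without the unnumbered Cd36KO library, 132 and 123 without Cd36KO replicates 3 and 4. Calls over all genes were 284 under the reported test, 14 by edgeR, 171 with independent filtering off and 8 by limma. Calls in the further list went from 2 to 0 by edgeR or limma, 1 with TMM factors and 0 to 3 when a library was left out (3 without WT replicate 4, which were Irf2, Mavs and H2-Aa, 0 without WT replicate 2 or 3 or Cd36KO replicate 2, 3 or 4, and 1 without the unnumbered library). Without WT replicate 4 or Cd36KO replicate 2 or 3, and for H2-T23 with TMM factors, DESeq2 gave these genes no adjusted p, so those calls could not be judged. The median log2 fold change of the 42 genes stayed between 0.36 and 0.49, and the number positive between 31 and 35.

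The replicate block, over the 3 numbers that columns of both groups carry, called 1 listed gene (1 higher, Rsad2), 219 of all genes, and the same 6 libraries without the block called Iigp1 and Rsad2. At an unadjusted p under 0.05 they gave 6 (4 higher) and 8 (6 higher) of the 48 listed genes, and the shares over all genes at that cut were not counted. Same-numbered libraries correlated at -0.055, 0.23 and 0.098 in their deviations from the group means, so the numbers were not taken to pair samples. Signs turned under the replicate block for Ifit1 (0.22), Ifit3 (-0.10), Parp14 (0.29), Tap2 (0.13) and Tapbp (-0.030). On the same 6 libraries without it they turned for Ifit1 (0.21), Ifit3 (-0.14), Parp14 (0.26), Tapbp (-0.037) and Psme2 (-0.077), and under limma for Parp14 (0.0090). With single libraries left out, log2 fold changes spanned zero for Irf1 (-0.21 to 0.079), Ifit1 (-0.50 to 0.037), Ifit2 (-1.09 to 0.074), Lgals3bp (-0.48 to 0.015), Parp14 (-0.21 to 0.14), H2-D1 (-0.23 to 0.12), Tapbp (-0.00020 to 0.27) and Psme2 (-0.032 to 0.51). None of these genes passed the test, and the cause was not tested. With under 50 counts in all for Mx1, Oas1a, Oas2, Ifit2 and Ifitm1, DESeq2 gave no adjusted p for these genes.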

Other observations

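In the further list, the 30 interferon-stimulated genes outside the 49 with a mean of at least 10 normalized counts showed no lean, with 15 positive and 15 negative estimates and a median log2 fold change of 0.04 (range -0.64 to 0.76). Genes of the whole further list at that level with an unadjusted p under 0.05 or no overlap between groups, and not given above, were looked up after the values had been seen, and none passed the test of all genes with all 8 libraries. Cmpk2, the neighbour of Rsad2 that encodes a mitochondrial nucleotide kinase, was higher in all Cd36KO libraries (0.61 from 141 counts in all, DESeq2 adjusted p = 0.521), and Jak2, a kinase of the interferon-gamma receptor, lower in all (-0.91, adjusted p = 0.102). The groups overlapped for the factor gene Irf4 (-0.69, adjusted p = 0.220), the antiviral adaptor gene Mavs (0.61, adjusted p = 0.310, or 0.0151 without WT replicate 4), the ADP-ribosyltransferase gene Parp12 (0.66, adjusted p = 0.271) and the class II genes H2-Aa (0.56, adjusted p = 0.174, or 0.0390 without WT replicate 4) and Cd74 (0.45, adjusted p = 0.317).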
